A study of Gallus gallus with 10 samples.

Results

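The genes described here are 10 transcription factor or regulator genes that mark the presomitic mesoderm and its derivatives, the somites: MSGN1, RIPPLY2, MEOX1, MEOX2, TCF15, FOXC1, FOXC2, PAX1, NKX3-2 and MYF5. They were taken by gene symbol from a table of 25443 chicken genes, and each symbol matched 1 gene. RIPPLY2 has 2 annotated transcripts and the others have 1 each, and no other annotated gene overlaps any of them. Of the 10 genes, 9 passed the filter on low counts and were tested, and RIPPLY2 did not. All embryos were wild-type chicken embryos, electroporated at st. 4/5 unless stated below and cultured to st. 10–11, and the RNA of each library came from a pool of 4 embryos. The Otx2 embryos received a pCAGGS vector with the mouse Otx2 cDNA together with a pCAGGS-EGFP vector, and the control embryos received EGFP vector without Otx2. The trunk portion that corresponds in position to the sinus rhomboidalis was taken from Otx2 embryos (OT, 2 libraries), and the sinus rhomboidalis from control embryos (CT, 2 libraries). The midbrain-hindbrain portion was taken from Otx2 embryos (OH, 2 libraries) and control embryos (CH, 2 libraries), and the posterior area opaca from Otx2 embryos (OA, 1 library) and control embryos (CA, 1 library). The pCAGGS promoter is active in most cell types, so that the vector marks no single tissue.

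The presomitic mesoderm is the unsegmented paraxial mesoderm at the posterior end of the embryo, from which somites are pinched off one pair after another. MSGN1 is a bHLH factor of the posterior presomitic mesoderm, and RIPPLY2 is a repressor that acts with T-box factors where the next segment border forms. MEOX1, MEOX2, TCF15 (also called paraxis), FOXC1 and FOXC2 are genes of the newly formed somite, PAX1 and NKX3-2 are genes of the sclerotome that gives the vertebrae, and MYF5 is a bHLH factor of the muscle lineage. Several of these genes are also used elsewhere, FOXC1 and FOXC2 in head mesenchyme and PAX1 in the pharyngeal endoderm.

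The libraries held between 28606038 and 40806402 counts on genes. A count of 0 allows up to 3 reads, or between 0.0735 and 0.105 CPM (counts scaled to the library total) over the libraries, and this limit covers counting error only. Mouse Otx2 transcripts were found at 334 and 529 TPM (transcripts scaled for length and library total) in OT, 97.4 and 160 TPM in OH, and 139 TPM in OA. They were at 0 in CT, CH and CA. The level was higher in OT than in OH, so comparisons between these cannot tell region and mouse Otx2 level apart. The 2 control trunk libraries do not have the same history. The deposited library name of CT1 is NewCT1, no other library is named in this way, and what the name stands for is not stated. The title of CT1 says that no electroporation was done, while its listed treatment is the EGFP vector, and for CT2 the listed treatment is none. EGFP was at 1.12 TPM in CT1 and 15328 TPM in CT2, which goes with the titles and against the listed treatments. TBXT, the T-box gene of the tail bud, was at 214 and 192 TPM in CT and at 6.69 and 7.73 TPM in CH, and EN1, a gene of the midbrain-hindbrain boundary, was at 0 and 0.101 TPM in CT and at 25.2 and 23.9 TPM in CH. A gene is referred to as called when its adjusted p was under 0.05 in edgeR's quasi-likelihood test on the counts of OT, CT, OH and CH, adjusted by the Benjamini-Hochberg method across the 16611 genes that entered the fit. Nothing states that the libraries of a group came from separate experiments, and the spread between duplicates may be partly technical. In bulk tissue, fewer cells of a type and less RNA per cell cannot be told apart.

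The levels of the 10 genes in each library are described first. MSGN1 (chromosome 3, 99799579 to 99800884 on GRCg7w, gene identifier 395419) was the leading gene of the set in the control trunk. It stood at 13.0 and 0.805 TPM in OT, against 83.2 and 87.7 TPM in CT, and did not exceed 0.153 TPM in the other libraries. Both OT libraries therefore lay below both CT libraries, but they differed from each other 16.1-fold, with 260 reads in OT1 and 18 reads in OT2. MSGN1 took 34.1% and 1.18% of the summed TPM of the 10 genes in OT, and 72.6% and 86.6% in CT.

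RIPPLY2 (chromosome 3, 77078619 to 77080689, gene identifier 421838) was near the detection limit everywhere. It had 0 and 11 reads in OT, 8 and 6 reads in CT, 0 reads in both OH libraries, 0 and 6 reads in CH, 10 reads in OA and 10 reads in CA. The ratio of its CPM in OT to that in CT was 0.854, with an exact 95% counting interval of 0.351 to 2.02, and a difference was not detectable at this depth.

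PAX1 and NKX3-2, introduced above as sclerotome genes, had another distribution, with their highest levels in the midbrain-hindbrain. PAX1 (chromosome 3, 3592601 to 3597403, gene identifier 100859138) was at 4.13 and 4.88 TPM in OT, against 0.0747 and 0 TPM in CT. It was at 18.4 TPM in both OH libraries, and at 11.2 and 15.2 TPM in CH. The 2 OT libraries were close to each other and lay between the control trunk and the midbrain-hindbrain. NKX3-2 (chromosome 4, 76927397 to 76929342, gene identifier 373932) was at 1.98 and 11.5 TPM in OT, against 0.313 and 0.611 TPM in CT. Its levels were 29.3 and 16.6 TPM in OH, and 25.8 and 33.3 TPM in CH. The OT libraries thus did not overlap with CT or with the midbrain-hindbrain, but differed 5.81-fold between them.

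Among the somite genes, FOXC2 (chromosome 11, 17354208 to 17356166) was at 7.40 and 16.8 TPM in OT, against 6.37 and 3.06 TPM in CT. In the midbrain-hindbrain FOXC2 was at 24.3 and 25.2 TPM in OH, and at 21.1 and 27.0 TPM in CH. FOXC1 (chromosome 2, 66670265 to 66673273) was at 2.26 and 2.81 TPM in OT, against 5.06 and 2.27 TPM in CT, and these overlapped. It was at 10.1 and 7.80 TPM in OH and 8.11 and 8.23 TPM in CH, above all trunk libraries. TCF15 (chromosome 20, 10051603 to 10054015), which is needed in the mouse for the epithelial form of the somite, was at 4.30 and 15.8 TPM in OT, against 7.24 and 3.34 TPM in CT. The 4 midbrain-hindbrain libraries held TCF15 between 3.25 and 5.82 TPM, within the range of the control trunk or just below it.

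MEOX1 (chromosome 27, 4272778 to 4278356) was at 3.47 and 10.9 TPM in OT, against 9.04 and 3.01 TPM in CT. Its midbrain-hindbrain levels were 11.8 and 10.6 TPM in OH and 8.89 and 16.7 TPM in CH. MEOX2 (chromosome 2, 27975850 to 28029032) was a low transcript, at 1.08 and 0.887 TPM in OT, against 0 and 0.138 TPM in CT. MEOX2 was at 0.415 and 0.401 TPM in OH and at 0.309 and 0.753 TPM in CH, below OT in all 4 libraries. MYF5 (chromosome 1, 40441731 to 40443211) did not separate any groups of embryonic tissue, with 0.483 and 2.55 TPM in OT, 2.40 and 0.744 TPM in CT, 1.99 and 1.10 TPM in OH, and 1.92 and 1.57 TPM in CH.

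The duplicates of the trunk groups differed in a way that several genes shared. OT2 was higher than OT1 in TCF15 (3.68-fold), MEOX1 (3.13-fold), FOXC2 (2.27-fold) and MYF5 (5.28-fold), as in NKX3-2, whereas MSGN1 was lower in OT2. CT1 was higher than CT2 in MEOX1 (3.01-fold), MYF5 (3.23-fold), FOXC1 (2.23-fold), TCF15 (2.17-fold) and FOXC2 (2.08-fold), whereas MSGN1 differed 1.05-fold between them. NKX3-2 went the other way, at 0.313 TPM in CT1 and 0.611 TPM in CT2, as did MEOX2, at 0 and 0.138 TPM. EGFP was at 1.12 TPM in CT1 and 15328 TPM in CT2, so electroporation and ordinary spread cannot be told apart in these differences. The duplicates of OH differed by at most 1.82-fold in the 8 genes other than MSGN1 and RIPPLY2, in MYF5. Those of CH differed by at most 2.43-fold in the same 8 genes, in MEOX2.

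**Figure D1:**
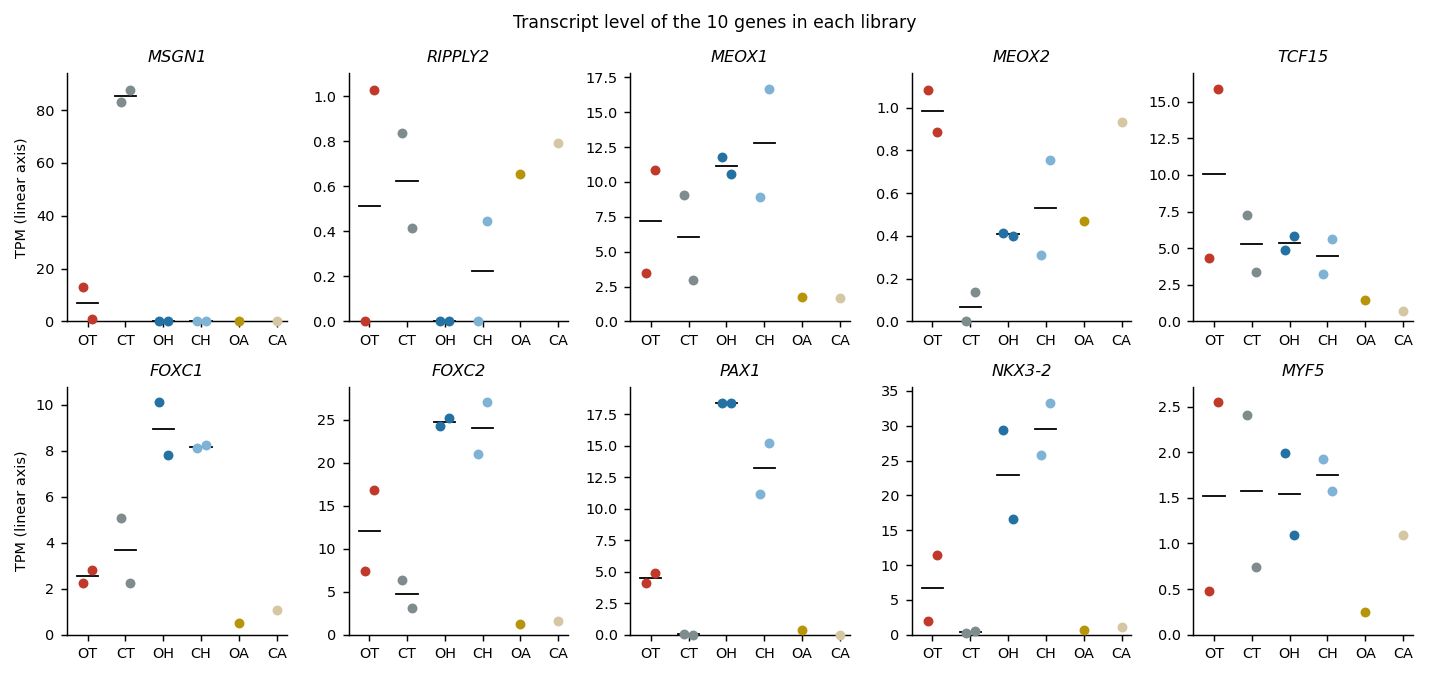
Transcript level of each of the 10 genes in TPM (linear axes from 0, scaled for each gene), with a point for each library and a bar at the mean of duplicates, for OT, CT, OH, CH, OA and CA. MSGN1 stands at 83.2 and 87.7 TPM in CT and at 13.0 TPM or less in every other library, whereas PAX1 is between 4.13 and 4.88 TPM in OT and at most 0.0747 TPM in CT.

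The comparison of OT with CT asked how the genes of the paraxial mesoderm differed in the trunk under exogenous Otx2. CT1 was titled as not electroporated and held EGFP at 1.12 TPM, so the comparison also takes in electroporation in part. PAX1 and NKX3-2 rose in OT, and no gene of the set passed the test as lower. Which tissue their transcripts came from was not tested. Of the 9 genes tested, 2 were called, both higher, against 6.73% of all genes tested (4.29% called higher and 2.44% called lower). PAX1 rose by 6.98 on the log2 scale (standard error 0.64, adjusted p = 0.00527). Since CT held 2 PAX1 reads against 265 in OT, the CPM ratio of 144 has an exact 95% counting interval of 39.5 to 1190. The standard error was derived from the F statistic of the test, and this interval is wider than that error implies. NKX3-2 rose by 3.77 on the log2 scale (standard error 0.83, adjusted p = 0.0418), a 13.6-fold difference.

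MSGN1 was not called (log2 fold change -3.56 ± 1.09, standard error; adjusted p = 0.0989, unadjusted p = 0.0134). It passed the test in 2 of 15 alternative analyses, when OT1 was left out (log2 fold change -6.66, adjusted p = 0.0100) and with limma on log2(TPM + 1) (adjusted p = 0.0331), and the adjusted p ranged from 0.0100 to 0.326 over the 15. MEOX2 was 3.53 higher on the log2 scale (standard error 1.06, adjusted p = 0.0935), from 71 reads in OT against 7 in CT. Its CPM ratio was 11.0, with a counting interval of 5.08 to 28.4. FOXC2 was 1.39 higher (standard error 0.44, adjusted p = 0.107). The other 4 genes had small log2 fold changes against their errors: 0.94 (standard error 0.64) for TCF15, 0.28 (0.64) for MEOX1, -0.03 (0.87) for MYF5 and -0.49 (0.39) for FOXC1, with adjusted p between 0.379 and 0.986. In 4 of the 9 genes (PAX1, NKX3-2, MEOX2 and FOXC2) both OT libraries were higher than both CT libraries, where 25.9% of all genes were, and in 1 gene (MSGN1) both were lower, where 29.6% were. The median log2 fold change was 0.94 over the 9 genes and 0.03 over all genes.

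PAX1 remained called when each of the 8 libraries was left out, including CT1 (adjusted p = 0.0239), and lost the call only when the 4 trunk libraries were fitted alone (adjusted p = 0.0545; 1.3e-09 to 0.0545 over 15 alternatives). The NKX3-2 call was less firm, as it was lost on leaving out any single library except OT1, with an adjusted p of 0.0636 without OT2, 0.256 without CT1 and 0.104 without CT2 (2.4e-06 to 0.256 over 15 alternatives).

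**Figure D2:**
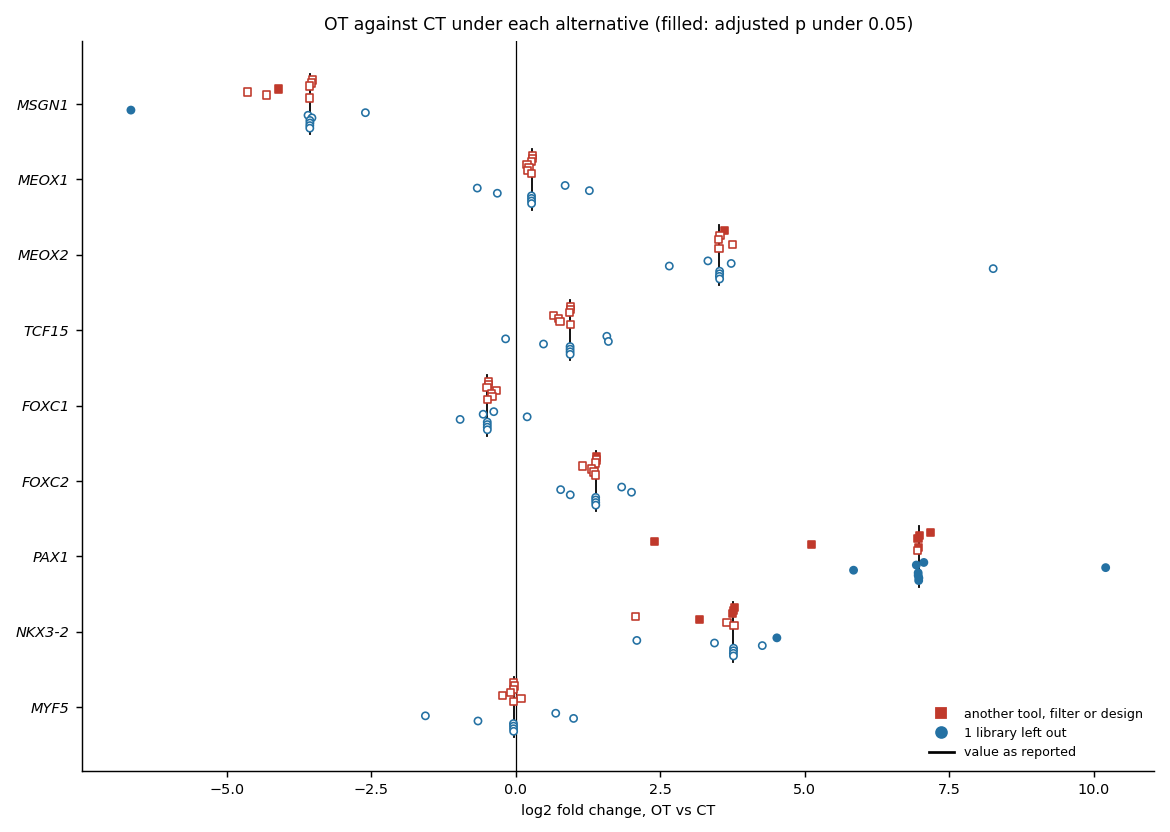
Log2 fold changes of OT vs CT for the 9 tested genes under each alternative, with squares for another tool, filter or design, circles for fits with 1 library left out, filled where the adjusted p was under 0.05, and a bar at the value given in the text. PAX1 is filled in 14 of 15 alternatives and NKX3-2 in 5 of 15, and MEOX1, TCF15, FOXC1 and MYF5 have points on both sides of 0.

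In the midbrain-hindbrain, OH was compared with CH, a portion of which the midbrain part normally expresses Otx2. In edgeR 0 of the 9 genes were called and 0 had an unadjusted p under 0.05, and DESeq2 and limma also called 0. Of all genes 0.0361% were called, and 2.76% had an unadjusted p under 0.05. The log2 fold changes lay between -0.38 (NKX3-2, standard error 0.68) and 0.46 (PAX1, standard error 0.38), with MSGN1, MEOX1, MEOX2, TCF15, FOXC1, FOXC2 and MYF5 between them. PAX1 was higher in both OH libraries than in both CH libraries, as were 19.3% of all genes. The standard error of MSGN1 was 2.68, from 4 reads in OH and 3 reads in CH, and a difference in this gene was not detectable there.

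The difference between the trunk and midbrain-hindbrain effects was tested as an interaction on the log2 scale, which compares ratios. Region and mouse Otx2 level cannot be told apart in it. Mean PAX1 rose from 0.0373 TPM in CT to 4.50 TPM in OT, and from 13.2 TPM in CH to 18.4 TPM in OH. The rise in TPM was thus no larger in the trunk, and the ratio there rests on 2 reads in CT. PAX1 was called, with an effect of 6.52 larger in the trunk on the log2 scale (standard error 0.77, adjusted p = 0.0368), and it was the 1 gene called of the 9, against 0.223% of all genes (0.0843% with a larger and 0.138% with a smaller effect in the trunk). This call was kept in 6 of 14 alternatives, was lost without CT1 (adjusted p = 0.105) and without CT2 (0.0525), and was also lost on leaving out either library of OH or of CH. The adjusted p over the 14 ranged from 3.0e-07 to 0.271. NKX3-2 (4.15, standard error 1.06, adjusted p = 0.176), MEOX2 (3.88, standard error 1.40, adjusted p = 0.300), FOXC2 (1.37, standard error 0.61, adjusted p = 0.403) and MSGN1 (-3.66, standard error 3.11, adjusted p = 0.673) were not called, so that a different effect in the 2 regions was not shown for them. The same was true of TCF15 (0.70), MEOX1 (0.48), MYF5 (0.16) and FOXC1 (-0.59), with adjusted p between 0.693 and 0.979.

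**Figure D3:**
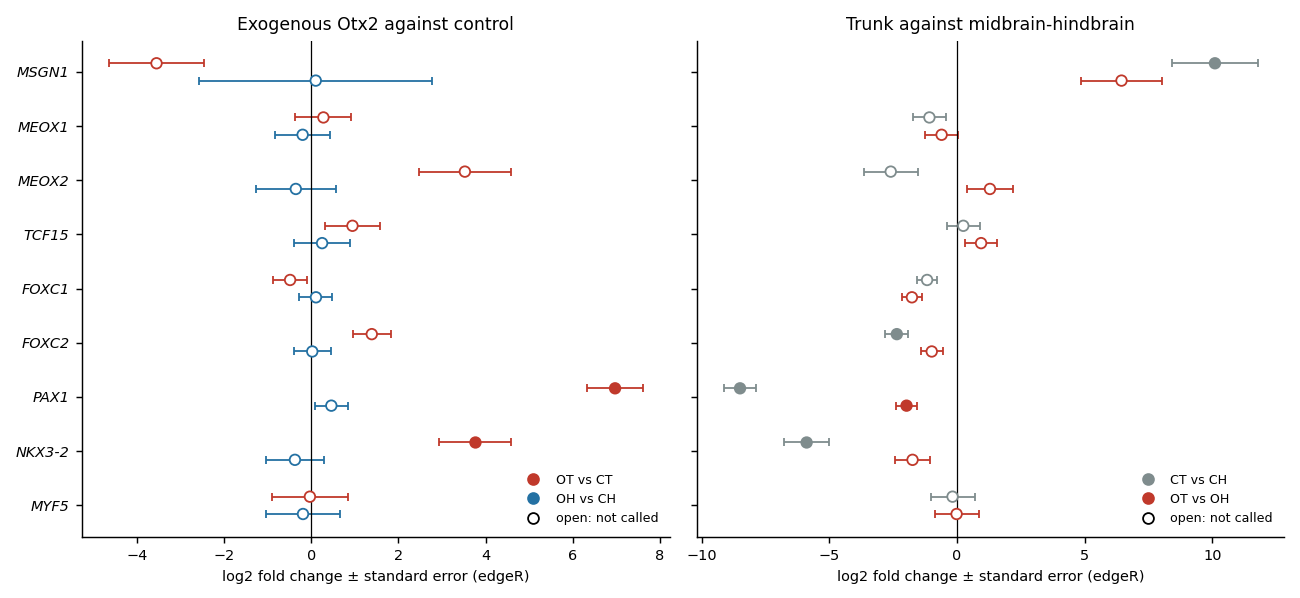
Log2 fold changes of the 9 tested genes (edgeR) with standard errors derived from the F statistic. OT vs CT and OH vs CH are on the left, and CT vs CH and OT vs OH on the right. Filled points were called at an adjusted p under 0.05. PAX1 (6.98) and NKX3-2 (3.77) are filled for OT vs CT, no point is filled for OH vs CH, and 4 are filled for CT vs CH.

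The regional difference in control embryos, CT against CH, was compared next. It shares the CT libraries with the comparison of OT with CT, and the 2 sets of values are not independent. MSGN1 was higher in the sinus rhomboidalis, and PAX1, NKX3-2 and FOXC2 were lower. These were 4 of the 9 genes, against 7.78% of all genes called (2.91% higher and 4.88% lower). MSGN1 was higher by 10.10 on the log2 scale (standard error 1.67, adjusted p = 0.0148), and the CPM ratio of 1170 from 3764 reads in CT against 3 in CH has a counting interval of 401 to 5690. PAX1 was lower (log2 fold change -8.49 ± 0.64, standard error; adjusted p = 0.00141), with 2 reads in CT against 778 in CH and a CPM ratio of 0.0024 (counting interval 0.000291 to 0.00871). For NKX3-2 it was -5.89 (standard error 0.88, adjusted p = 0.0107), and for FOXC2 -2.35 (standard error 0.45, adjusted p = 0.0243). FOXC1 (-1.17, adjusted p = 0.124) and MEOX2 (-2.59, adjusted p = 0.208) lay below CH in both CT libraries without a call in edgeR. DESeq2 called FOXC1 here (adjusted p = 0.0323), the 1 alternative of 15 that did so. Both CT libraries were thus lower than both CH libraries in 5 of the 9 genes, where 24.0% of all genes were, and higher in 1 gene, MSGN1, where 25.0% were. TCF15, MEOX1 and MYF5 overlapped between the regions.

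The PAX1 call held without each library in turn. The MSGN1 call was lost without CT1 (adjusted p = 0.0560), CH1 (0.0921) or CH2 (0.0733), with 1.6e-05 to 0.0921 over 15 alternatives. The NKX3-2 call was lost without CT1 (0.0810) or CT2 (0.0619), with 1.8e-15 to 0.0810 over 15. The FOXC2 call was lost without CT2, OH1, OH2, CH1 or CH2, with 1.5e-06 to 0.103 over 15.

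OT was then set against OH, the 2 tissues that both carried exogenous Otx2. Mouse Otx2 was at 334 and 529 TPM in OT and at 97.4 and 160 TPM in OH, so region and its level are confounded. PAX1 was lower in OT (log2 fold change -1.97 ± 0.40, standard error; adjusted p = 0.0490) and was the 1 gene called of 9, against 3.34% of all genes (1.52% higher and 1.82% lower). This call was kept in 6 of 15 alternatives (adjusted p 4.7e-09 to 0.272). NKX3-2 (-1.74, standard error 0.70, adjusted p = 0.188), FOXC1 (-1.76, standard error 0.39, adjusted p = 0.0560) and FOXC2 (-0.99, standard error 0.43, adjusted p = 0.218) were below OH in both OT libraries and were not called. FOXC1 passed the test in 6 of 15 alternatives (adjusted p 0.000583 to 0.256), as many as PAX1, so that the calls of the 2 genes are not set apart. NKX3-2 and MSGN1 each passed in 2 of 15, with DESeq2 and without OT2. MSGN1 was 6.44 higher on the log2 scale (standard error 1.57, adjusted p = 0.0665), from 278 reads in OT against 4 in OH, a CPM ratio of 88.5 with a counting interval of 34.2 to 327. MEOX2 was also above OH in both libraries (1.29, standard error 0.92, adjusted p = 0.446). TCF15 (0.94), MEOX1 (-0.60) and MYF5 (-0.015) overlapped between OT and OH, with adjusted p between 0.422 and 0.995. Both OT libraries were lower than both OH libraries in 4 of the 9 genes, where 32.9% of all genes were, and higher in 2, where 24.0% were.

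Genes of the same tissues beyond the 10 were grouped in lists of the presomitic mesoderm and segmentation, the early somite and dermomyotome, the sclerotome and the muscle lineage. The lists were chosen with earlier results of these data known, so the shares of all genes set beside them are no test of the lists. Of 16 presomitic and segmentation genes tested, 8 were lower and 2 were higher in OT than in CT. Of all genes, 2.44% were called lower and 4.29% higher. The median log2 fold change was -1.20 in the list and 0.03 over all genes. Those lower were TBX6 (-3.28, adjusted p = 0.0330) and TBXT (-2.71, adjusted p = 0.00724), T-box factors of the posterior mesoderm, DLL1 (-2.55), a Notch ligand, NRARP (-1.60), a Notch feedback gene, CYP26A1 (-1.34), which breaks down retinoic acid, PCDH8 (-1.46) and PCDH19 (-1.05), which are protocadherins, and EPHA4 (-1.06), an Eph receptor. The 2 that rose were TBX18 (3.01), a T-box gene of the anterior part of each somite, and CDX1 (2.90), a caudal homeobox gene. TBX6, which like MSGN1 is a gene of the posterior presomitic mesoderm, was at 17.6 and 4.38 TPM in OT against 119 and 105 TPM in CT. The summed TPM of this list was 362 and 268 in OT, and 933 and 827 in CT. It was 465 and 475 in OH, and 422 and 475 in CH, where TBX6 was at 1.30 TPM or less. The sum is therefore no measure of presomitic mesoderm alone.

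Of 13 early somite and dermomyotome genes, 5 rose and 1 fell in OT against CT (median log2 fold change 0.97). Of all genes, 4.29% were called higher and 2.44% lower. Among those that rose, TWIST1 (4.16, adjusted p = 0.0206) and EYA2 (1.58, adjusted p = 0.00492) are regulators used in several mesodermal tissues. ALDH1A2 (4.13, adjusted p = 0.0319) makes retinoic acid, and EN1 (5.10, adjusted p = 0.0234) is a gene of both the dermomyotome and the midbrain-hindbrain. The OT libraries held 3.14 and 11.5 TPM of TWIST1, 12.9 and 16.4 TPM of EYA2, 29.1 and 124 TPM of ALDH1A2, and 1.10 and 3.89 TPM of EN1. EN1 had 5 reads in CT. EYA2 was at 82.6 and 81.9 TPM in OH, and ALDH1A2 at 29.5 TPM in OA and 27.3 TPM in CA. The summed TPM of this list was 109 and 268 in OT, and 96 and 99 in CT. It was 362 and 361 in OH, and 329 and 408 in CH, so this sum is no measure of somites alone. PDGFRA, a receptor of early mesoderm, fell by 0.73. PAX3, also of this list, was lower in both OT libraries, at 6.33 and 13.6 TPM against 22.6 and 24.0 TPM in CT. It was not called (log2 fold change -1.21, adjusted p = 0.0693). In the interaction EYA2 (1.59, adjusted p = 0.0376) was called as well, and TBXT (-3.60, adjusted p = 0.0336) among the presomitic genes.

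Of 10 sclerotome genes beyond PAX1 and NKX3-2, 1 was called, SOX8 (1.47, adjusted p = 0.0394), which is also a neural crest gene. That is 10.0% of the list, near the 6.73% of all genes called, and the list median was 0.30. PAX9, the close relative of PAX1, was at 3.81 and 0.971 TPM in OT against 1.21 and 1.48 TPM in CT, overlapping, with a log2 fold change of 0.88 (adjusted p = 0.378). Of 8 genes of the muscle list, 3 rose, against 4.29% of all genes called higher. Among them were ACTC1 (7.68), which encodes an actin of heart and early muscle, and DES (2.93), which encodes desmin of both. The median log2 fold change of this list was 1.64. MYOD1 and MYOG, skeletal muscle genes that did not pass the low-count filter, were at 0.236 TPM or less in OT and CT. MYF6, another skeletal muscle gene, was at 0.713 and 1.14 TPM in OT against 0.965 and 0.645 TPM in CT, overlapping, and was not called. Which muscle the rises came from was not tested. In OH against CH, 0 of the 47 genes of the 4 lists were called in edgeR, against 0.0361% of all genes. Among the 47, 2 had an unadjusted p under 0.05 in edgeR, as had 2.76% of all genes. DESeq2 called 1, where it called 58 of all genes, and limma called 0.

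**Figure D4:**
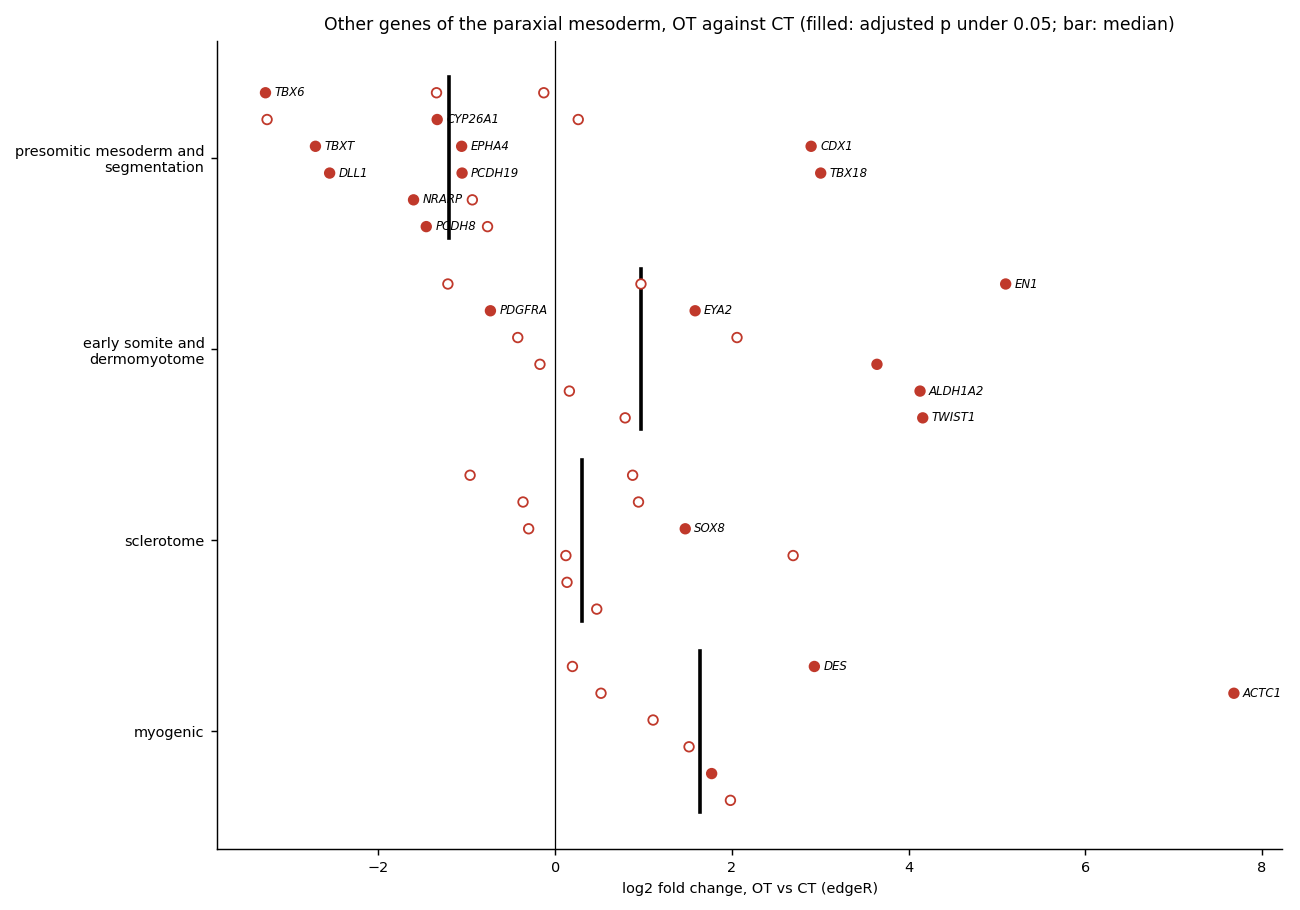
Log2 fold changes of OT vs CT (edgeR) for the genes of 4 lists beyond the 10 described genes, with a point for each tested gene, filled where the adjusted p was under 0.05, with names for the called genes given in the text, and a bar at the median of the list. The lists were chosen with earlier results of these data known. The presomitic list has its median at -1.20 with 8 called genes below 0, and the early somite list has its median at 0.97 with 5 called genes above 0. Of all genes, 2.44% were called lower and 4.29% higher.

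The same lists were compared between the control regions. Of the presomitic list, TBXT, TBX6, DLL1, CYP26A1 and WNT5B were called higher in CT than in CH and TBX22, TBX18 and HEY1 lower. Calls in the other lists were lower in CT: 7 of 13 in the early somite list, 5 of 10 in the sclerotome list and 4 of 8 in the muscle list, against 7.78% of all genes called and 4.88% called lower.

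Markers of other tissues also differed between OT and CT, where 4.29% of all genes were called higher and 2.44% lower. In edgeR 26.8% of all genes had an unadjusted p under 0.05. Of 6 head mesoderm markers, 4 were higher in OT (CYP1B1, TCF21 and TBX1 among them) and 0 lower, with a summed level of 215 and 190 TPM in OT, 45.4 and 76.0 TPM in CT, 297 and 263 TPM in OH, and 292 and 281 TPM in CH. TBX1, TCF21 and CYP1B1 were at 0.146 TPM or more in every trunk library. MSC was at 0.308 and 0.181 TPM in OT against 0 and 0.141 TPM in CT, and was not called. ALX4 went the other way, at 2.01 and 1.45 TPM in OT against 2.90 and 2.76 TPM in CT, and was not called. Of 7 endoderm markers, a list added after the values had been seen, FOXA2 was called higher, and the summed level was 272 and 218 TPM in OT against 124 and 155 TPM in CT. This sum was 285 TPM in OA and 214 TPM in CA. FOXA2 is also in the notochord list, so it is counted in both. Of 7 neural crest markers, SOX10 and FOXD3 were higher and TFAP2A, MSX1 and SNAI2 lower. SOX10 was at 0.789 and 4.36 TPM in OT against 0.0224 and 0.0195 TPM in CT. Of 8 neural markers, IRX3 was higher, and the summed level was 44.3 and 148 TPM in OT against 67.6 and 50.1 TPM in CT. Of 7 lateral and cardiac markers, TBX5 and NKX2-5 were higher and HAND2 and FOXF1 lower, and of 5 notochord markers FOXA2 was higher and CHRD and NOTO lower. PAX2 of 4 intermediate mesoderm markers and DLX5 of 6 surface ectoderm markers were lower. In edgeR 0 of 6 endothelial markers (2 at an unadjusted p under 0.05; DESeq2 2, limma 0) and 0 of 3 area opaca and blood markers (1 at an unadjusted p under 0.05; DESeq2 0, limma 0) were called, and the summed level of the area opaca and blood markers was 19850 and 9296 TPM in OT against 6853 and 8307 TPM in CT. The part of these tissues in the values of PAX1, NKX3-2 and the other genes was not tested.

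In the posterior area opaca the 10 genes were low. Their summed level was 7.48 TPM in OA and 9.20 TPM in CA, against 38.1 to 115 TPM in the trunk and midbrain-hindbrain libraries. MEOX1 was the highest of them in both, at 1.79 TPM in OA and 1.68 TPM in CA. With 1 library each there was no test, and counting intervals cover counting error only. These intervals were apart in 4 genes. The share of all genes with intervals apart was not computed, so this count is not a result about these genes. MEOX2 was at 0.539 CPM in OA and 1.20 CPM in CA, FOXC1 at 0.809 CPM in OA and 1.86 CPM in CA, and MYF5 at 0.147 CPM in OA and 0.665 CPM in CA. PAX1 had 14 reads in OA and 0 in CA, and the exact 95% counting interval of its CPM ratio starts at 2.45. MSGN1 had 3 reads in OA and 2 in CA.

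**Figure D5:**
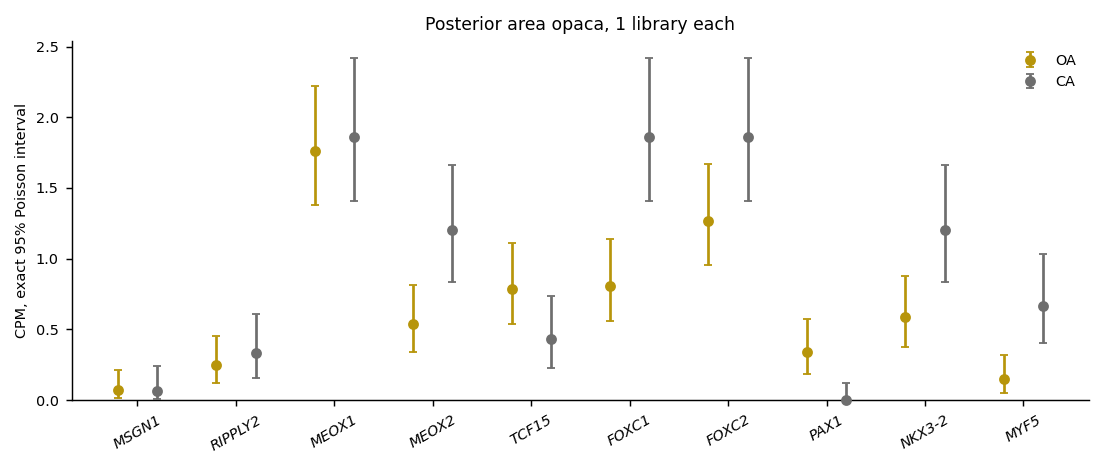
Level of the 10 genes in the posterior area opaca in CPM, 1 library each of OA and CA, with exact 95% Poisson intervals of the counts. The intervals are apart for MEOX2, FOXC1 and MYF5, lower in OA, and for PAX1, which had 14 reads in OA and 0 reads in CA.

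Finally, the genes whose levels ran most like those of each member were sought over the 10 libraries, for the 7 members that reached 5 TPM in at least 1 library, among 10887 genes that did the same. These are correlations of log2(TPM + 1) between genes over libraries that share 3 tissues, and no test was made of them. The genes most like MSGN1 were BHLHA9 (Pearson's r = 0.998), NKX1-2 (0.989) and TBX6 (0.981). Those most like PAX1 were IRX5 (0.992), KCNH6 (0.991) and KAZALD1 (0.990), and those most like NKX3-2 were FOXD3 (0.987), CA12 (0.985) and NKX2-2 (0.980). FOXC2 ran with SYT12 (0.990), RFX4 (0.984) and FZD7 (0.983), and FOXC1 with FZD2 (0.989), EYA1 (0.981) and PKNOX2 (0.980). The values were lower for MEOX1, with MMP24 (0.966), PSMD6 (0.965) and EDNRA (0.961), and for TCF15, with CHN1 (0.957), PKN2 (0.927) and EFCAB14 (0.925).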

How the data were processed

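Poly-A RNA was sequenced from 10 libraries, each made from the pooled tissue of 4 embryos. Reads were mapped by the authors to GRCg7w, to which mouse Otx2 and EGFP sequences had been added, and the authors assembled transcripts with StringTie; the aligner, versions and strand setting are not given in the sources used here. The deposited counts are whole, unnormalized read counts per gene, and the authors' TPM values are scaled for transcript length and library total. The 20 deposited columns of FPKM were not used. Starts and ends are those of GRCg7w, and chromosome numbers came from matching the 10 gene identifiers to the RefSeq table of GRCg7b.

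Counts of OT, CT, OH and CH (2 libraries each) were fitted together in edgeR 4.0.16 (R 4.3.3) with 1 coefficient per group, TMM normalization and the default low-count filter, which kept 16611 genes and removed 8832. The fit had 4 residual degrees of freedom and a common dispersion of 0.0781. The quasi-likelihood test was used for 5 comparisons, called at 0.05 after Benjamini-Hochberg adjustment across every gene that passed the filter. Standard errors are the absolute log2 fold change divided by the square root of the F statistic of the test. They can understate counting error where a group held few reads, as for PAX1 in CT. OA and CA entered no test. Alternatives were the DESeq2 1.42.0 Wald test, RLE normalization, no filter, limma 3.58.1 on log2(TPM + 1) and log2(TPM + 0.1) for genes of at least 1 TPM in at least 2 libraries, the replicate number as a block, the 4 libraries of a comparison alone, and leaving out each library. Intervals of counts are exact 95% Poisson or binomial intervals and cover counting error only. Tables and figures were made in Python 3.11.15.

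The 9 tested genes were named in every comparison and RIPPLY2 by its reads in each library, with genes called in each list; where a list had no call, the gene with the smallest unadjusted p could be named. Single values of a few list genes are not reported here, although the counts and sums of their lists include them. The members and lists were chosen with earlier results of these data known, and the endoderm list was added after the values had been seen. Of 116 list genes, 110 were found by symbol and 104 were tested. PAX3, PAX9, MYOD1, MYOG, MYF6, MSC and ALX4 were named outside this rule, after their values had been seen. Genes like a member were the 3 with the highest correlation among symbols that are not LOC names.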

Additional observations from a re-analysis of the deposited data

Results flagged for a closer look

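PAX1 reads were counted in the posterior area opaca of Otx2 embryos, which entered no comparison with a test. The level was 0.343 CPM in OA, from 14 reads, and 0 in CA, where 3 reads would correspond to 0.0997 CPM. With 1 library each, the difference has no replicate check. Only genes higher in OA could be flagged here. The counting intervals of MEOX2, FOXC1 and MYF5 were also apart, with these genes lower in OA. The share of all genes with intervals apart was not computed.

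The effect on PAX1 differed between the regions on the log2 scale by the test of the difference itself, with 2 PAX1 reads in CT. In TPM the rise was no larger in the trunk (mean 0.0373 in CT and 4.50 in OT) than in the midbrain-hindbrain (13.2 in CH and 18.4 in OH). The log2 fold change of OT vs CT exceeded that of OH vs CH by 6.52 (standard error 0.77, adjusted p = 0.0368 in edgeR), with both OT libraries above both CT libraries and both OH libraries above both CH libraries. It was the 1 of the 9 genes for which this held at the threshold, and leaving out CT1 (adjusted p = 0.105), CT2 (0.0525), OH1 (0.221), OH2 (0.271), CH1 (0.0633) or CH2 (0.0644) ended the call. The cause was not tested.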

How the results depend on the processing

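The number of genes called of the 10 moved with the tool and the libraries. In OT vs CT it was 2, and it was 4 with DESeq2 (adding MEOX2 and FOXC2), 1 with the replicate block, 0 with the 4 libraries alone, and 1 to 3 with a library left out. In the interaction it was 1, and it was 2 with DESeq2 (adding NKX3-2), 0 with limma on log2(TPM + 1), 0 with the replicate block, and 0 to 2 with a library left out. In CT vs CH it was 4, and it was 5 with DESeq2 (adding FOXC1), and 2 to 4 with a library left out. In OT vs OH it was 1, and it was 4 with DESeq2, 0 with RLE normalization, 2 without the filter, 2 with limma at either pseudocount, 0 with the replicate block, 0 with the 4 libraries alone, and 0 to 2 with a library left out. In OH vs CH it was 0 under every alternative run. The number called over all genes moved too. In OT vs OH it was 554 in edgeR, 2454 with DESeq2, 514 with RLE normalization and 690 without the filter. It was 905 and 674 with limma at pseudocounts of 1 and 0.1, 74 with the replicate block and 9 with the 4 libraries alone. From edgeR to DESeq2 it went from 37 to 788 in the interaction, 1293 to 2449 in CT vs CH and 6 to 58 in OH vs CH. The number called over all genes in OT vs CT was 1118 in edgeR, 2755 with DESeq2, 878 with the replicate block, 135 with the 4 libraries alone, and as few as 53 without CT1.

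Directions that changed belonged to genes without a call. The log2 fold change of MSGN1 in OH vs CH was -0.11 with the replicate block, that of MYF5 was 0.096 in OT vs CT and 0.091 in OT vs OH with the block, and that of MYF5 in the interaction was -0.0061 with limma on log2(TPM + 0.1). With a library left out, changes of sign gave the following ranges of the log2 fold change. In OH vs CH the range was -3.75 to 3.89 for MSGN1, -0.53 to 0.23 for MEOX1, -0.81 to 0.33 for MEOX2, -0.036 to 0.61 for TCF15, -0.11 to 0.29 for FOXC1, -0.082 to 0.13 for FOXC2 and -0.69 to 0.18 for MYF5. In the interaction the range was -7.45 to 0.19 for MSGN1, -0.45 to 1.48 for MEOX1, -0.41 to 1.36 for TCF15, -1.07 to 0.094 for FOXC1 and -1.36 to 1.20 for MYF5. In OT vs CT the range was -0.66 to 1.28 for MEOX1, -0.17 to 1.61 for TCF15, -0.96 to 0.20 for FOXC1 and -1.56 to 1.00 for MYF5. In CT vs CH the range was -0.42 to 0.71 for TCF15 and -1.21 to 0.44 for MYF5. In OT vs OH the range was -0.19 to 1.58 for TCF15 and -1.56 to 0.71 for MYF5. The cause was not tested. Of all single-gene values, those just given included, 271 of 295 under the alternatives that keep all libraries, and 294 of 360 with a library left out, kept their direction and their side of the threshold. Leaving a library out leaves its group with 1 library, which is then assumed to vary like the others.

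Libraries with the same number deviated together with a correlation between -0.155 (OT with CT) and 0.143 (OT with OH), so that the numbers were not taken to pair them. The replicate block ended the calls of NKX3-2 in OT vs CT (log2 fold change 3.66, adjusted p = 0.0629) and of PAX1 in the interaction (6.52, adjusted p = 0.0819) and in OT vs OH (-1.98, adjusted p = 0.0810). Levels near the floor, in RIPPLY2 in all libraries, MSGN1 in the midbrain-hindbrain, and PAX1 and MEOX2 in CT, were limited by depth.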
